A study of Arabidopsis thaliana with 12 samples.

Results

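Among the 27432 protein-coding genes of Arabidopsis thaliana, 4 met a rule for a very low or missing value in the val1 val2 double mutant. All 4 had RNA at a clear level in every wild-type, val1 and val2 seedling library. They are FBA5, a fructose-bisphosphate aldolase gene, NdhL, a gene for a subunit of a chloroplast electron-transfer complex, and AT2G04039 and AT2G04800, which carry no name in the annotation used. FBA5 had a low value in all 3 val1 val2 libraries. The other 3 genes had no listed transcript region of their own there, which does not show that their RNA was absent. A gene was counted when its FPKM (fragments per kilobase of transcript scaled to the mapped total of the library) was at least 10 in all 9 wild-type, val1 and val2 libraries. It also had to lie, in each val1 val2 library, at or below 10% of the lowest of those 9 values. Genes in a listed transcript region that spans several genes were left out. A gene with a region of its own was kept where a neighbour's region also covered part of it, as for NdhL and AT2G04039. Under a stricter reading only FBA5 and AT2G04800 remained. Of the 27432 genes, 7673 met the level of 10 FPKM outside such spanning regions, and the 4 genes are 0.0521% of these. The genes were thus chosen by their FPKM in these same 12 libraries, and their low or missing values in val1 val2 are given below as a description without a test.

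RNA was sequenced from whole seedlings 14 days old, with 3 biological replicates for each of 4 genotypes: wild type (WT), val1, val2 and the double mutant val1 val2. The labels name neither the accession of the wild type nor the mutant alleles, and no group received a treatment. VAL1 and VAL2 encode repressors with a B3 DNA-binding domain that keep seed maturation genes off after germination. Because the samples are whole seedlings, fewer cells of a type and less RNA per cell cannot be told apart.

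Fructose-bisphosphate aldolase cleaves and forms fructose bisphosphate, in glycolysis and gluconeogenesis in the cytosol and in the Calvin cycle in the chloroplast. Arabidopsis has plastid enzymes, FBA1 to FBA3, and cytosolic enzymes, FBA4 to FBA8. The chloroplast NADH dehydrogenase-like (NDH) complex sits in the thylakoid membrane, where it passes electrons from ferredoxin to plastoquinone in cyclic electron flow around photosystem I. Its subunits come partly from the plastid genome and partly from nuclear genes, of which NdhL is one and encodes a membrane subunit.

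Some libraries stood apart. The val1 val2 libraries correlated with the WT libraries at Pearson's r of 0.813 to 0.819 (replicate 1), 0.834 to 0.840 (replicate 2) and 0.880 to 0.886 (replicate 3) over 23221 genes, so the library labelled val1 val2 replicate 3 was nearest to WT. Replicates correlated with each other at 0.953 to 0.976 in val1 val2 and at 0.984 or more in the other groups. The mutated genes did not check the labels cleanly. VAL1 was 14.5 to 17.7 FPKM in WT, 12.7, 5.18 and 5.07 FPKM in val1 replicates 1 to 3, and 13.2, 11.1 and 22.6 FPKM in val1 val2. VAL2 was 17.7 to 22.0 FPKM in WT, 9.73 to 11.3 FPKM in val2 and 12.6 to 13.2 FPKM in val1 val2. It was also lower in val1, at 11 to 15.2 FPKM (log2 change -0.57 against WT, limma adjusted p = 0.0398). The listed VAL1 region was unbroken in the libraries labelled val1 replicate 1 and val1 val2 replicate 3, and the VAL2 region in those labelled val2 replicate 1 and val1 val2 replicates 2 and 3. The count of genes, the FBA5 values and the tests below were also computed without these libraries. Embryo and seed genes, which seedlings normally keep off, rose in val1 val2 for 11 of 11 genes tested, beside 24.6% of all genes (limma, adjusted p under 0.05). The 10 most abundant regions took 10.9 to 14.8% of all FPKM in val1 val2 against 5.51 to 7.75% in the other libraries. FPKM is relative to the library total, and the part of these shares in the levels below was not tested.

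FBA5 (AT4G26530; chromosome 4, bases 13390754 to 13393265) was the 1 gene of the 4 with a listed value in val1 val2. Its level was 94.5, 108 and 104 FPKM in the WT replicates, 66.8, 47.1 and 63.0 FPKM in val1 and 160.0, 134.6 and 135.2 FPKM in val2. In val1 val2 it was 0.426, 0.767 and 2.27 FPKM. WT, val1 and val2 did not overlap, in the order val2, WT and val1 from high to low. How many other genes separate in this way was not counted. That val1 val2 lay below them follows from the rule, and replicate 3 was the highest of the double mutants. The mean was 102 ± 6.77 FPKM in WT and 1.15 ± 0.979 FPKM in val1 val2 (SD, n = 3 each), a ratio of 88.4. The highest double-mutant value was 4.81% of the lowest other value, which is a 20.8-fold distance. Both rest on the library labelled val1 val2 replicate 3: without it the ratio was 171 and the distance 61.4-fold. The regions that gave these low values covered 61.9, 55.3 and 62.9% of the gene, with listed FPKM of 0.688, 1.39 and 3.6 and deposited confidence intervals from 0.306 to 1.07, from 0.782 to 1.99 and from 2.70 to 4.51. In each, the interval begins above 0.

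NdhL (AT1G70760; chromosome 1, bases 26687202 to 26688384) was the most abundant of the 4 in WT, with 132, 126 and 119 FPKM. It was 156, 84.6 and 131 FPKM in val1 and 140.5, 126 and 131 FPKM in val2, and it is listed at 0 in all 3 val1 val2 libraries. WT, val1 and val2 overlapped, with val1 replicate 1 the highest and val1 replicate 2 the lowest. Means were 126 ± 6.47, 124 ± 36.4 and 133 ± 7.25 FPKM (SD, n = 3 each), and the val1 mean was 108 FPKM without replicate 1.

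AT2G04039 (chromosome 2, bases 1333133 to 1334566) was 22.8, 29.3 and 30.6 FPKM in WT, 34.7, 21.8 and 32.5 FPKM in val1 and 32.3, 22.9 and 21.6 FPKM in val2. The 3 groups overlapped throughout, and val1 val2 is listed at 0 in each replicate. AT2G04800 (chromosome 2, bases 1687173 to 1687939) was the least abundant, close to the level of 10 FPKM that the choice required. It was 13.5, 12.4 and 14.3 FPKM in WT, 14.8, 13.0 and 12.4 FPKM in val1, 16.7, 13.1 and 18.8 FPKM in val2, and again is listed at 0 in the 3 double-mutant libraries. Both genes are on chromosome 2, 353 kb apart.

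**Figure D1:**
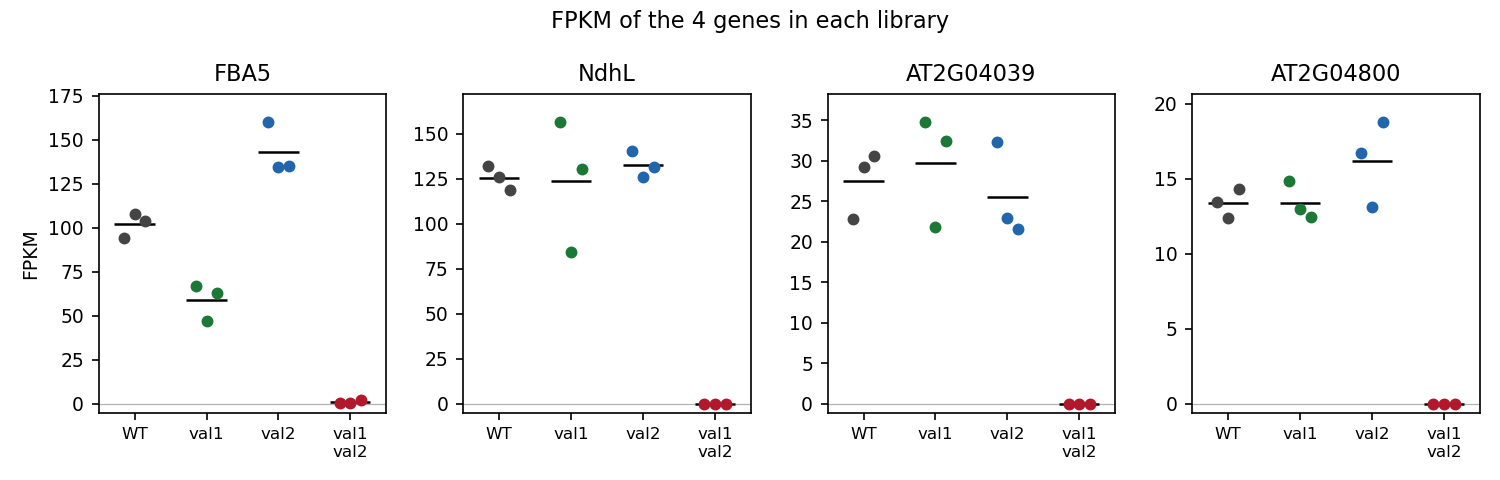
FPKM of FBA5, NdhL, AT2G04039 and AT2G04800 in each of the 12 libraries, on linear axes that differ between genes. Each point is a library and each bar the mean of 3. FBA5 is at 0.426 to 2.27 FPKM in val1 val2 and the other genes are listed at 0 there, while the groups other than val1 val2 separate for FBA5 and overlap for the rest.

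A listing at 0 means that the file of that library gives no transcript region of its own for the gene. The files list no region below an FPKM of 0.211 in any library, and for regions within 20% of the gene's length the lowest value listed in the val1 val2 libraries was 0.493 to 0.572 FPKM for NdhL, 0.392 to 0.494 FPKM for AT2G04039 and 0.771 to 0.910 FPKM for AT2G04800. Those values show how low a listed level could be for genes of that size. They are not a limit for these genes, because a region can also be missing when its assembly fails. Such single gaps, with no region in 1 replicate and at least 10 FPKM in the other 2, occurred for 11 to 27 genes per library out of 9240 to 10100. A listing at 0 in all 3 replicates also occurred outside the double mutant. With WT as the low group the same rule picked 1 gene (AT1G75945), with val1 it picked 2 (AT1G13609 and AT1G47400) and with val2 it picked 0, and each of these was listed at 0 in all 3 libraries of its group. Whether their regions are missing for want of RNA or by failed assembly was not tested.

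Some genes next to the 3 that are listed at 0 also differed between val1 val2 and WT. In that comparison, a fit of all 12 libraries, limma called 59% of 17800 genes (adjusted p under 0.05), 34.3% lower and 24.6% higher. A call on a neighbour is thus shared with most genes. NdhL shares 587 bases, 49.6% of its length, with AT1G70770. AT1G70770 was 65.1, 62.7 and 64.2 FPKM in WT and 121, 115 and 106 FPKM in val1 val2, higher in every double-mutant library (log2 change 0.82, limma adjusted p = 0.00056). Its region reached 107 bases into NdhL in val1 val2 replicate 3, and as far in libraries where NdhL has its own region (105 bases in WT replicate 1, 107 in val1 replicate 2 and 108 in val2 replicate 2). In val1 val2 replicates 1 and 2 no listed region reached into NdhL. The neighbour of NdhL on the other side, AT1G70750, fell from 9.03, 9.35 and 8.82 FPKM in WT to 2.19, 2.55 and 5.87 FPKM in val1 val2 (log2 change -1.24, limma adjusted p = 0.00093). AT2G04039 shares 297 bases, 20.7% of its length, with DTX1 (AT2G04040), which encodes a MATE-type efflux transporter. DTX1 was 3.74, 6.70 and 5.44 FPKM in WT and 120, 107 and 77.8 FPKM in val1 val2, and it rose with a log2 change of 4.03 (limma adjusted p = 4.9e-07). Its region reached 32 bases, 2.23%, into AT2G04039 in val1 val2 replicates 2 and 3, and no listed region reached into AT2G04039 in replicate 1. Whether reads of the overlapping neighbours bear on the missing regions was not tested. A neighbour's region also covered much of NdhL in 1 library and of AT2G04039 in 2 libraries of the other genotypes, beside each gene's own region. Under a stricter reading that leaves out such genes too, 2 genes remained, FBA5 and AT2G04800.

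AT2G04800 overlaps no other protein-coding gene. Its neighbour AT2G04795 fell from 15.5 ± 1.23 FPKM in WT (SD, n = 3) to 2.0, 0 and 3.13 FPKM in val1 val2 (log2 change -2.83, limma adjusted p = 0.00013), and the neighbour on the other side, AT2G04810, is listed at 0 in all 12 libraries. FBA5 shares 109 bases, 4.34% of its length, with FBA7, which is described with the aldolases below. On its other side AT4G26540 fell from 13.6, 14.1 and 18.8 FPKM in WT to 3.19, 3.39 and 5.90 FPKM in val1 val2 (log2 change -1.70, limma adjusted p = 3.2e-05). In all, 3 of the 4 genes (75.0%) overlap another protein-coding gene, against 2254 of the 7673 genes at the level of 10 FPKM (29.4%) and 4 of the 25 genes that came next (16.0%). The 3 genes listed at 0 are also short: 6.88%, 12.7% and 1.25% of the 7673 genes are shorter than NdhL, AT2G04039 and AT2G04800, while FBA5 is of middle length, with 50.3% shorter.

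The limit of 10% was not close to any of the 4 genes. FBA5 at 4.81% was the nearest inside it. Just outside were TIP2;3, a tonoplast aquaporin gene, at 11.1% of the lowest other value (2.15, 1.55 and 3.46 FPKM in val1 val2 against at least 31.3 FPKM elsewhere), BT1, a BTB and TAZ domain gene, at 11.2% (4.16, 3.65 and 17.2 FPKM against at least 154 FPKM) and AT5G50760 at 11.3% (2.70, 2.57 and 2.75 FPKM against at least 24.3 FPKM). In all, 25 genes lay between 10% and 20%, with a median of 18.0%. Among them are BT2, related to BT1, at 21.3, 19.0 and 82.6 FPKM in val1 val2 against 424 ± 11.9 FPKM in WT, and TIP2;2 at 11, 7.07 and 21.7 FPKM against 144 ± 6.22 FPKM. Others are CCL at 60.7, 103 and 182 FPKM against 1009 ± 80.9 FPKM, and the flowering integrator AGL20, also called SOC1, at 0.810, 0 and 1.89 FPKM against 16.2 ± 0.306 FPKM (SD, n = 3 each). In 23 of the 25 genes replicate 3 was the highest of the double mutants, as it was in 56.9% of the 7673 genes.

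**Figure D2:**
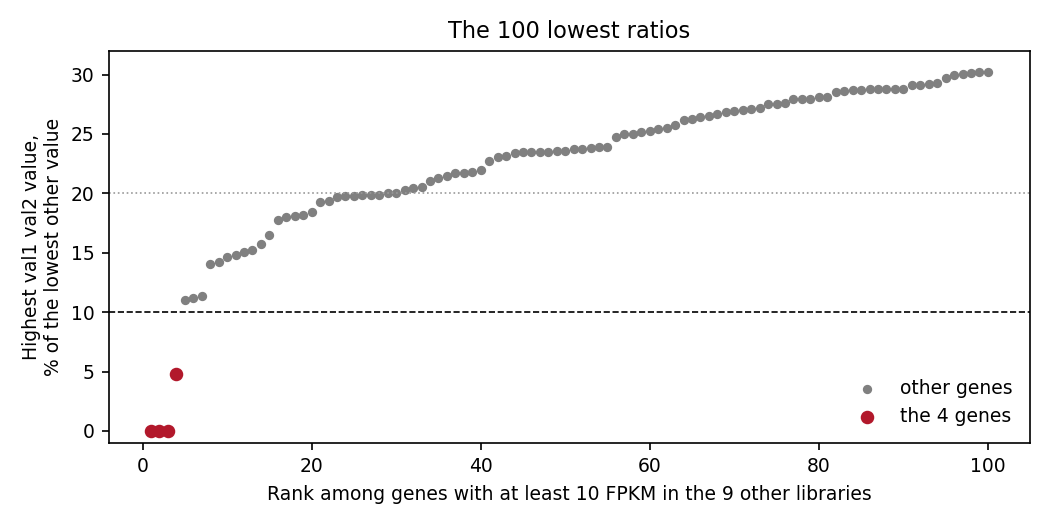
The 100 lowest of 7673 genes by the highest val1 val2 value as a percentage of the lowest value in the 9 other libraries. Each point is a gene, the dashed line is the limit of 10% and the dotted line 20%. The 4 genes sit at 0 or 4.81%, and the next gene is at 11.1%.

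The library labelled val1 val2 replicate 3 decided how many genes were chosen. Without it 53 genes met the rule, and without it, val1 replicate 1 and val2 replicate 1 together 57 did. Genes that replicate 3 alone kept out include AGT, a photorespiratory aminotransferase gene, at 21.5 and 34.8 FPKM in val1 val2 replicates 1 and 2 and 105 FPKM in replicate 3, and RBCS2B, a Rubisco small subunit gene of a near-identical family, at 80.8, 121 and 466 FPKM. Without val1 val2 replicate 1 the count was 6, and without replicate 2 it was 7.

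The 9 WT, val1 and val2 libraries were compared with each other in a fit that held no double-mutant library. The choice of the genes used these 9 values through the level of 10 FPKM and through the lowest of them, which for FBA5 is val1 replicate 2, and it did not compare the 3 genotypes. The tests are therefore not wholly independent of the choice. In val1 against WT, 1 of the 4 genes was called (limma on log2(FPKM + 1), adjusted p under 0.05 over 17028 genes), beside 8.67% of all genes tested and 7.36% of the 7673 genes at 10 FPKM or more. FBA5 fell by 0.79 on the log2 scale (SE 0.140, adjusted p = 0.0128), and all 3 val1 libraries were below all 3 WT libraries. The mean was 59.0 ± 10.4 FPKM in val1 (SD, n = 3), 57.9% of WT. This call was lost when the double mutants entered the fit and its spread (adjusted p = 0.135), and it held when each of the 9 libraries was left out (adjusted p = 0.0174 to 0.0471) and without val1 replicate 1 and val2 replicate 1 (adjusted p = 0.0295).

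In val2 against WT, 0 of the 4 genes were called by limma, beside 10.8% of all genes tested and 10.2% of the 7673. At an unadjusted p under 0.05, a level whose share over all genes was not counted, there was 1 gene. That gene was FBA5, at 143 ± 14.5 FPKM in val2 (SD, n = 3), with a log2 change of 0.48 (SE 0.140, unadjusted p = 0.00809, limma adjusted p = 0.0638). All 3 val2 libraries were above all 3 WT libraries. FBA5 was called without val1 replicate 2 (adjusted p = 0.0248) and in a fit of WT and val2 alone (adjusted p = 0.0422). With the FPKM of its largest region as listed, not multiplied by the share of the gene covered, the log2 change was 0.31 (limma adjusted p = 0.262). That region covered 79.5, 68.9 and 83.5% of FBA5 in val2 and 67.6, 69.0 and 67.4% in WT. Over all alternatives adjusted p ranged up to 0.367.

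In val1 against val2, 1 of the 4 genes was called, beside 12.4% of all genes tested and 10% of the 7673. FBA5 was lower in val1, with a log2 change of -1.28 (SE 0.140, limma adjusted p = 0.000936), and the call held in every alternative fit (adjusted p up to 0.0152). For NdhL, AT2G04039 and AT2G04800 no comparison among these groups passed the test, with log2 changes between -0.25 and 0.25, standard errors of 0.195, 0.214 and 0.133 and limma adjusted p of 0.269 or more. These misses do not show that the groups are alike.

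**Figure D3:**
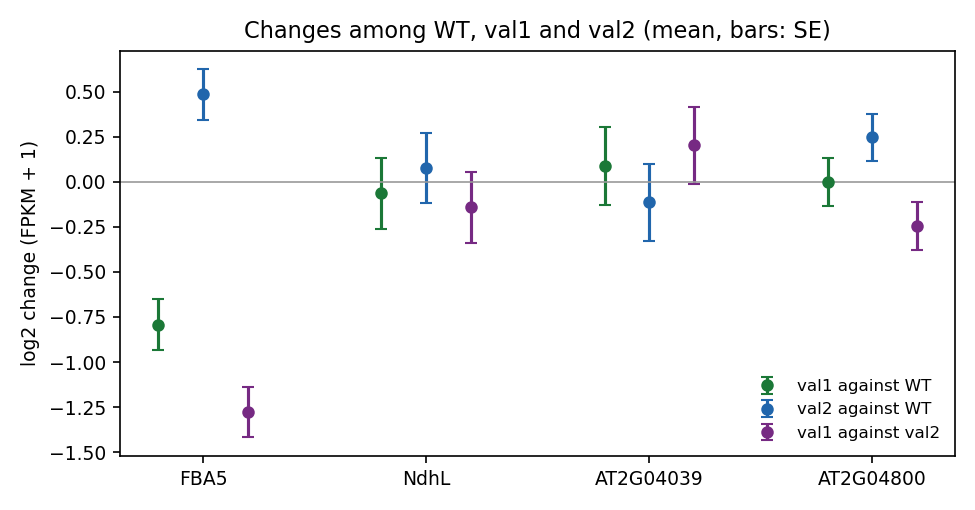
Log2 change, on the FPKM + 1 scale, of the 4 genes in val1 against WT, val2 against WT and val1 against val2, from 9 libraries. Points are estimates and bars their SE. FBA5 is at -0.79, 0.48 and -1.28, and the other genes lie between -0.25 and 0.25.

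The aldolase family was listed from the annotation after the 4 genes were known. For genes other than the 4, val1 val2 was compared with WT in a fit of all 12 libraries, in which 59% of 17800 genes were called, 34.3% lower and 24.6% higher. Of the 7 other aldolase genes 6 could be tested, of which 4 were lower and 2 higher. FBA7, the cytosolic gene next to FBA5, was 19.5 and 21.9 FPKM in WT and 1.83 and 2.97 FPKM in val1 val2, with 1 library of each group left out because its region spanned several genes (log2 change -2.69, limma adjusted p = 1.2e-05). In the single mutants FBA7 was 16.7, 14.9 and 16.9 FPKM in val1 and 35.8 and 29.5 FPKM in val2, higher in val2 than in WT (log2 change 0.63, limma adjusted p = 0.0348) and lower in val1 than in val2 (log2 change -0.97, limma adjusted p = 0.00479). In val1 against WT it did not pass the test (log2 change -0.34, limma adjusted p = 0.148). FBA5 and FBA7 are related copies side by side, and reads that match both could have been shared between them.

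The plastid genes FBA1 and FBA2 fell less. FBA1 went from 178 ± 9.43 FPKM in WT to 26.4, 33.1 and 78.3 FPKM in val1 val2 (log2 change -2.09, limma adjusted p = 0.00016). FBA2, the most abundant aldolase gene in WT of those measured, went from 830 ± 26.5 to 236 ± 99.0 FPKM (SD, n = 3; log2 change -1.90, limma adjusted p = 5.7e-05). The cytosolic genes FBA6 and FBA8 rose. FBA6 was 113 ± 26.3 FPKM in WT and 260 ± 66.2 FPKM in val1 val2 (log2 change 1.19, limma adjusted p = 0.0008), and FBA8 was 213 ± 13.8 and 645 ± 110 FPKM (log2 change 1.58, limma adjusted p = 3.0e-06). FBA4 was low throughout and fell from 9.52 ± 0.585 to 6.54 ± 1.01 FPKM (SD, n = 3; log2 change -0.49, limma adjusted p = 0.00817). FBA3 had no usable value in WT, since its region spanned several genes.

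**Figure D4:**
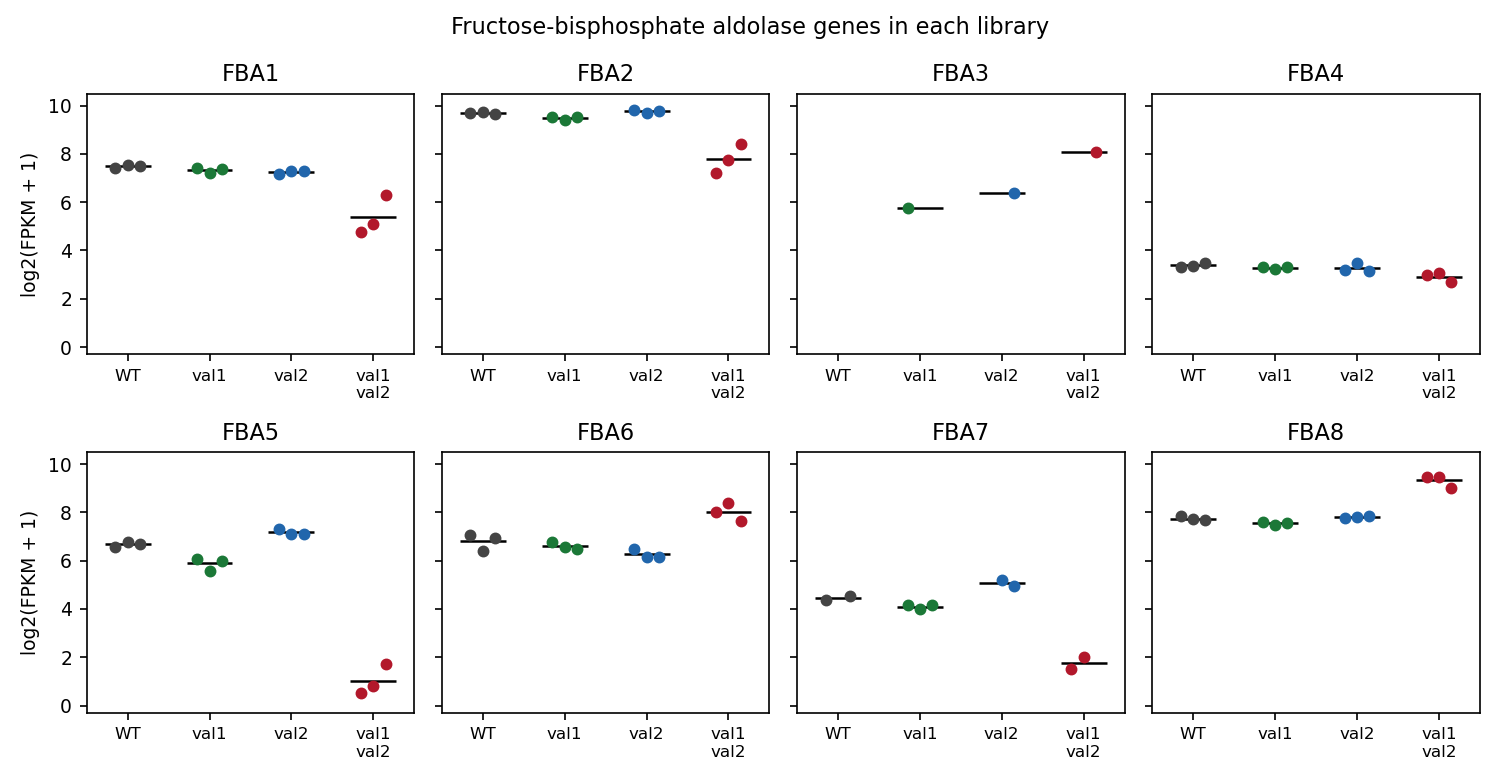
Levels of the 8 fructose-bisphosphate aldolase genes in each library as log2(FPKM + 1). Points are libraries and bars the group mean, and libraries whose region spanned several genes are left out. FBA5 and FBA7 are highest in val2 and lowest in val1 val2, FBA1 and FBA2 fall in val1 val2, and FBA6 and FBA8 rise there.

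The other nuclear genes for NDH subunits were also listed by their names in the annotation, after NdhL was known. A subunit gene without such a name is missing from the list. AT2G04039 and AT2G04800 carry no name there and so could not enter it. Of 16, 15 could be tested, and all 15 were lower in val1 val2 than in WT (limma, adjusted p under 0.05), beside 34.3% of all 17800 genes. Their median log2 change was -2.59, with a range of -3.56 to -0.67, beside a median of -0.14 over all 17800 genes. PnsL3, a lumenal subunit, fell from 51.7 ± 4.65 FPKM to 1.49, 3.39 and 7.03 FPKM (log2 change -3.56, limma adjusted p = 4.5e-06). PnsB1 fell from 81.2 ± 15 FPKM to 2.17, 6.17 and 16.4 FPKM (log2 change -3.47, limma adjusted p = 8.0e-05). NdhN, a stromal-side subunit, fell from 73.2 ± 10.9 FPKM to 4.20, 9.50 and 19.5 FPKM (SD, n = 3; log2 change -2.83, limma adjusted p = 8.8e-05). The smallest change was in the gene that the annotation names Pnsl5, a cyclophilin-type subunit, from 96.4 ± 2.75 to 61.1 ± 11.5 FPKM (log2 change -0.67, limma adjusted p = 0.00095).

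The calls on the neighbours, aldolases and NDH subunit genes in val1 val2 against WT were recomputed without the doubted libraries. Without val1 val2 replicate 3, 25 of the 26 genes had enough values and all 25 were called in the direction given (limma, adjusted p up to 0.0193), with PnsB4 not testable and the PnsB1 change at -4.09. Without val1 val2 replicate 2, 25 were testable, FBA7 not, and all 25 were called (limma, adjusted p up to 0.018), with the AT2G04795 change at -2.22. Without val1 replicate 1 and val2 replicate 1 all 26 were called (limma, adjusted p up to 0.0184).

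Of the 17 nuclear genes named as subunits in the annotation, NdhL was the 1 gene listed at 0 in all 3 val1 val2 libraries. NdhT and PnsB4 are each listed at 0 in 1 of them, NdhT at 0, 1.51 and 4.1 FPKM and PnsB4 at 12.0, 0 and 46.8 FPKM. Of 12 genes for factors that assemble the complex or process its plastid RNAs, 9 could be tested and 8 were lower, with CRR2 at 8.93 ± 0.369 FPKM in WT and 9.47 ± 0.423 FPKM in val1 val2 (SD, n = 3; log2 change 0.08, limma adjusted p = 0.524). CRR3, at 1.91, 4.77 and 5.84 FPKM against 30.5 ± 1.28 FPKM in WT, is among the 25 genes between 10% and 20%. In val1 against WT, 2 of the 15 NDH subunit genes passed the test, beside 8.67% of all genes, and 7 had an unadjusted p under 0.05. PnsL3 (log2 change -0.59, limma adjusted p = 0.0057) and PnsB3 (-0.62, limma adjusted p = 0.031) were lower in val1. In val2 against WT limma called 0 of the 15, beside 10.8% of all genes, and 3 had an unadjusted p under 0.05. How many of all genes reach that unadjusted level was not counted, and the shares given are for adjusted p.

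**Figure D5:**
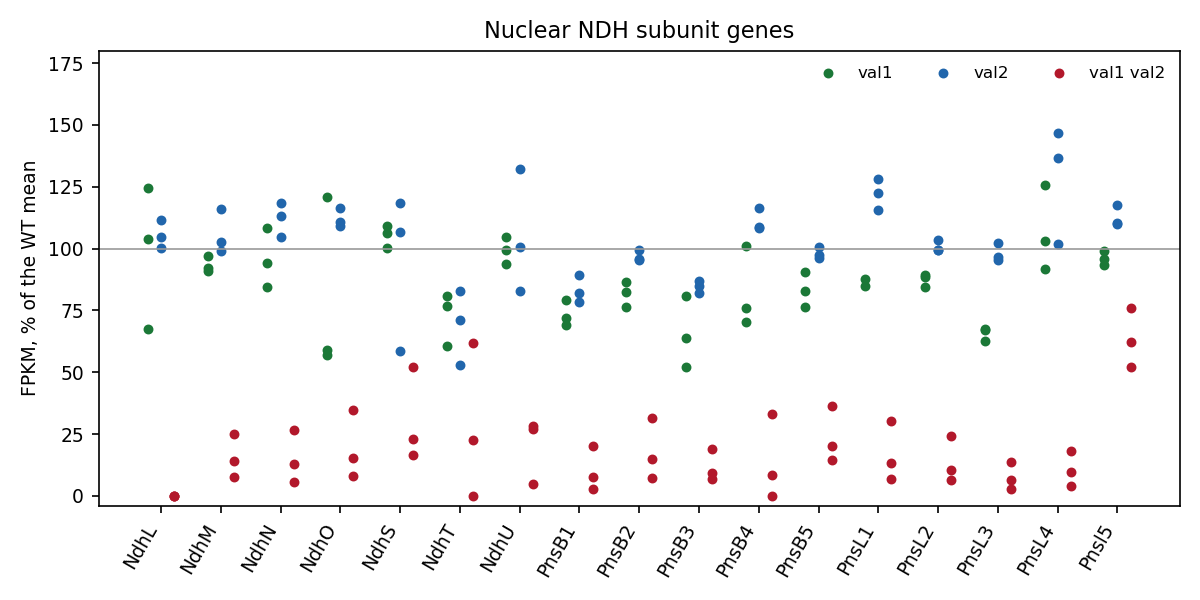
FPKM of the 17 nuclear genes named as NDH subunits in the annotation, in each val1, val2 and val1 val2 library, as a percentage of the WT mean. Points are libraries, and the grey line marks 100%. NdhL is at 0 in all 3 val1 val2 libraries, and the other genes keep a listed value in at least 2 of them.

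Genes of other photosynthetic and tissue lists also changed in val1 val2 (12-library limma fit, adjusted p under 0.05). In that fit 34.3% of all 17800 genes were lower and 24.6% higher, and some of the lists below are near these shares. Of 19 light-reaction genes tested 18 were lower, with a median log2 change of -1.83, and of 14 Calvin cycle and photorespiration genes 14 were lower, with a median of -2.59. The summed level of the 16 light-reaction genes that lay in no spanning region was 16269 to 18622 FPKM in WT and 3441 to 7755 FPKM in val1 val2, with none listed at 0. Aquaporin genes were lower for 12 of 12, guard cell genes for 10 of 10, endodermis and inner root genes for 8 of 9 with 1 higher, root hair and root surface genes for 8 of 11 with 2 higher, and phloem and xylem genes for 9 of 12. Glucosinolate and myrosin cell genes were lower for 11 of 17 with 1 higher, and epidermis and cuticle genes for 9 of 14 with 3 higher. Jasmonate and defence genes were lower for 3 and higher for 3 of 11, cell division genes higher for 6 of 9, and reference genes lower for 2 of 6. Of the 4 genes, 0 are in these lists. This follows from how the lists were made, since they hold no NDH subunit gene and, of the aldolases, FBA1 alone. It does not place the 4 genes outside photosynthesis. The part of cell-type makeup in the levels of the 4 genes was not tested.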

How the data were processed

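RNA-seq of 12 libraries of whole seedlings (3 each of WT, val1, val2 and val1 val2) was used, with groups and replicate numbers from the sample titles. The authors deposited FPKM per assembled transcript region for each library, per the file headers, with a confidence interval and no gene names. Tools listed in the submitters' processing notes, without their roles, are Cufflinks 2.2.1, TopHat2 2.1.1, MACS2 and Cuffdiff, and the build is TAIR10. The files give no counts, so depth is unknown. Libraries held 19164 to 20293 regions. Strand is not given in the sources used here.

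Regions were assigned by position to 27432 protein-coding genes of the RefSeq table of TAIR10.1. As a check of the build, median offsets between regions and annotated genes were 67 to 78 bases at the start and 72 to 79 bases at the end. Each gene was given the FPKM of its regions, multiplied by the share of the gene covered and added up, and a gene with no region was given 0. A gene was left out of a library where its region covered at least 50% of another gene as well and the gene made up less than 75% of that region. It was also left out where it had no region of its own and another gene's region covered at least 20% of it. This reading of spanning regions was chosen after seeing the data. It removed 5 of 9 candidates (UBQ6, AT3G13062, SEP1, AT4G39880 and FRO6).

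Values were tested as log2(FPKM + 1), with a pseudocount of 1, by limma 3.58.1 in R 4.3.3 with a mean-dependent prior and Benjamini-Hochberg adjustment over all genes with at least 1 FPKM in at least 3 libraries. Fold changes on this scale understate the change of low genes. A value with no region was treated as missing where both other replicates reached 10 FPKM. Scripts were tested on simulated data. The fits of val1 val2 against WT, used for genes other than the 4, were added after seeing the data. The 4 genes and all lists were chosen with earlier results of these data known. All 4 genes were named, with 3 genes just outside the limit. Neighbours, aldolase and NDH genes, the genes between 10% and 20%, and the examples without val1 val2 replicate 3 were chosen after their values were seen. The title numbers of val1 replicates 2 and 3 disagree with their file names. Python 3.11.15 with pandas 2.3.3 and matplotlib 3.10.9 was used for the remaining steps. Promoter motifs and the sequences of the 4 genes were not analysed here.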

Additional observations from a re-analysis of the deposited data

Results flagged for a closer look

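FBA5 differed between the single mutants, with a log2 change of -1.28 in val1 against val2 (limma adjusted p = 0.000936). All 3 val1 libraries were below all 3 WT libraries and all 3 val2 libraries were above them. How many other genes separate in this way was not counted. The comparison of val2 against WT did not pass the test (limma adjusted p = 0.0638). That of val1 against WT did not with all 12 libraries in the fit (limma adjusted p = 0.135). Groups of 3 are too small for a test of outlying samples.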

How the results depend on the processing

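The count of 4 genes depended on the rule and on single libraries. It was 12 with a level of 5 FPKM, 29 with a limit of 20%, 14 with WT alone setting the level and the lowest value, 9 with genes in spanning regions kept and 2 under a stricter reading of spanning regions. Leaving out 1 library at a time gave 4 to 53, with 53 without val1 val2 replicate 3 and 7 without val1 val2 replicate 2. Leaving out val1 replicate 1, val2 replicate 1 and val1 val2 replicate 3 together, an alternative chosen after seeing the data, gave 57. The cause was not tested. In val1 against WT 1 gene was called, and 0 with all 12 libraries in the fit. In val2 against WT 0 were called and 1 in a fit of those groups alone, with 0 to 1 when 1 library was left out. Those calls were FBA5. In val1 against val2 the count was 1 in every alternative. Same-numbered replicates did not deviate together (18 correlations of -0.038 to 0.065), so the numbers are not taken as pairs; with the replicate block FBA5 had an adjusted p of 0.0316, 0.0964 and 0.00467 in val1 against WT, val2 against WT and val1 against val2, and the number of the 4 genes called did not change. Counts of the recomputed lists in val1 val2 against WT stayed within 1.5 times. Over the alternatives 14 to 15 NDH subunit genes, 6 to 8 NDH factors and 3 to 4 aldolase genes were lower. So were 17 to 19 light-reaction genes, 13 to 14 Calvin cycle genes and 11 to 12 aquaporin genes. The other lists, embryo and seed genes among them, were not recomputed. Depth is unknown, so no limit can be set on the level of a gene listed at 0.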
